A study of Mus musculus with 46 samples.

Results

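The genes described here are 8 genes used as markers of interneurons born in the caudal ganglionic eminence (CGE): Nr2f1, Nr2f2, Prox1, Sp8, Adarb2, Npas1, Npas3 and Cxcl14. They were taken by name from a table of 22800 genes, and 8 of 8 were found in it. They were read in 46 single mouse neurons, together with Lhx6, a gene of the medial ganglionic eminence (MGE) lineage. Of these neurons, 23 came from a Htr3a Cre driver line and 23 from a Sst Cre driver line. Mice of both lines were 21 to 30 days old, and both groups carried the same label of cell type, OLM, the oriens-lacunosum moleculare interneuron of the hippocampus. The cytosol of each cell was drawn into a patch-clamp pipette and sequenced. A Cre driver line picks cells by the activity of its driver gene, so each group holds the OLM cells that its driver reached. In these libraries Htr3a itself was read in 5 of 23 Htr3a-line cells and 2 of 23 Sst-line cells. Sst was read in all 23 cells of each line, so reads of the driver genes do not separate the groups. The labels name no animal, and each library is 1 cell, so the cells of a line count as 1 sample. The lines are compared by values alone, without a p-value, and an SD is the spread between cells.

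Cortical and hippocampal interneurons arise in the ganglionic eminences of the embryonic ventral forebrain, and their birthplace leaves a code of transcription factors in the mature cell. Lhx6 marks the MGE lineage, which gives rise to somatostatin and parvalbumin cells. Nr2f2, Prox1, Sp8 and Adarb2 are commonly used to mark the CGE lineage, which gives rise to Vip and neurogliaform cells. Nr2f1 and Nr2f2 are the COUP-TF nuclear receptors, a pair of close relatives that bind DNA. Npas1 and Npas3 are relatives too, of the basic helix-loop-helix PAS family. Prox1 is a homeobox factor, Sp8 a zinc finger factor, Adarb2 a catalytically inactive relative of the RNA editing enzymes, and Cxcl14 a secreted chemokine.

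Reads assigned to genes numbered 3391829 to 26136222 per cell in the Htr3a line (median 15336981) and 5639490 to 31386369 in the Sst line (median 16726879). Genes with a read numbered 3350 to 12693 per cell in the Htr3a line (median 8169) and 3225 to 8774 in the Sst line (median 6569). Of 1035 pairs of libraries, 0 were identical. Levels are counts scaled to 1000000 assigned reads of the cell (CPM). Cells that stand apart are Htr3a line replicate 4, with 0.446 CPM of Gad1 and 554.6 CPM of Gad2, the enzymes that make GABA, Htr3a line replicate 20, with 7.08 CPM of Gad1, and Htr3a line replicate 10, with the most genes read, and results that rest on them are given without them. The 8 OLM genes summed to 5514 to 105600 CPM in the Htr3a line and 2420 to 82800 CPM in the Sst line, and Sst was read in 46 of 46 cells.

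All 8 genes are protein-coding and were placed on GRCm38 by the GENCODE M21 annotation. Npas1 lies on chromosome 7 (16455721 to 16477728, minus strand) and Npas3 on chromosome 12 (53248677 to 54072175, plus strand). Nr2f1 lies on chromosome 13 (78188973 to 78199757, minus strand) and Nr2f2 on chromosome 7 (70351944 to 70366735, minus strand). Both have an annotated gene on the opposite strand that overlaps their exons, over 123 and 643 bases, and without a stated strand setting reads of those bases cannot be told apart. Of the 31-base words in the transcripts of Nr2f2, 8.12% also occur in those of other genes, against 2.18% for Nr2f1, 0.904% for Npas3 and 0% for Npas1.

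Because Npas1 and Npas3 were read in nearly the same cells, the 250 bases before the RefSeq start of each gene are shown. Both are from RefSeq on GRCm38.p6 and run 5′ to 3′ along the gene, chr7:16476781-16477030 on the minus strand and chr12:53248182-53248431 on the plus strand. The Npas1 window ends where the protein-coding transcript begins, and 1 non-coding Npas1 transcript in GENCODE M21 begins upstream of it and spans it as an intron. The Npas3 window ends upstream of the start of Npas3 in GENCODE M21, at 53248677. The 20 bases that follow this window are in 0 of the GENCODE M21 transcripts of Npas3. Capitals mark the core ACGTG, read on either strand, a sequence that dimers of the bHLH-PAS family bind.
Npas1: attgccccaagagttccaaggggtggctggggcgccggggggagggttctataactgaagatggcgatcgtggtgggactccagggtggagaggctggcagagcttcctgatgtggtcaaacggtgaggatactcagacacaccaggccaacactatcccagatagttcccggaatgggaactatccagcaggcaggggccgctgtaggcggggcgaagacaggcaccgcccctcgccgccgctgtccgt
Npas3: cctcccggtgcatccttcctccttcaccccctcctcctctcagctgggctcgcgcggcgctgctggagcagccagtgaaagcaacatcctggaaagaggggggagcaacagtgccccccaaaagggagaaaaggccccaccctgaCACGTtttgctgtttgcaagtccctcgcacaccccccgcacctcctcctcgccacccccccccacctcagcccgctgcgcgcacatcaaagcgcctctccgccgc
The core ACGTG occurs in the Npas3 window and not in the Npas1 window. It begins 105 bases before the RefSeq start of Npas3, on the opposite strand (CACGT). It occurs in 16.6% of 32817 promoter windows of the same length. The half-site AGGTCA, to which the COUP-TF proteins bind, was searched on both strands as well. It is in neither window and occurs in 4604 of the 32817 promoter windows. A match or its absence describes these letters alone.

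The 8 genes fell into 2 sets by how often they were read. Npas1, Npas3, Nr2f1 and Nr2f2 were each read in 26 to 38 of 46 cells. Adarb2, Cxcl14, Prox1 and Sp8 were each read in 1 to 5. The number of the 8 genes read in a cell had a median of 3 in the Htr3a line (range 1 to 8) and 3 in the Sst line (range 1 to 4). The means were 3.39 ± 1.37 in the Htr3a line and 2.65 ± 0.775 in the Sst line (SD, 23 cells each), a difference smaller than the SD in either line. The cell with 8 was Htr3a line replicate 10. Without replicates 4, 10 and 20 of the Htr3a line the difference in means was 0.55, against 0.74 with them.

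**Figure D1:**
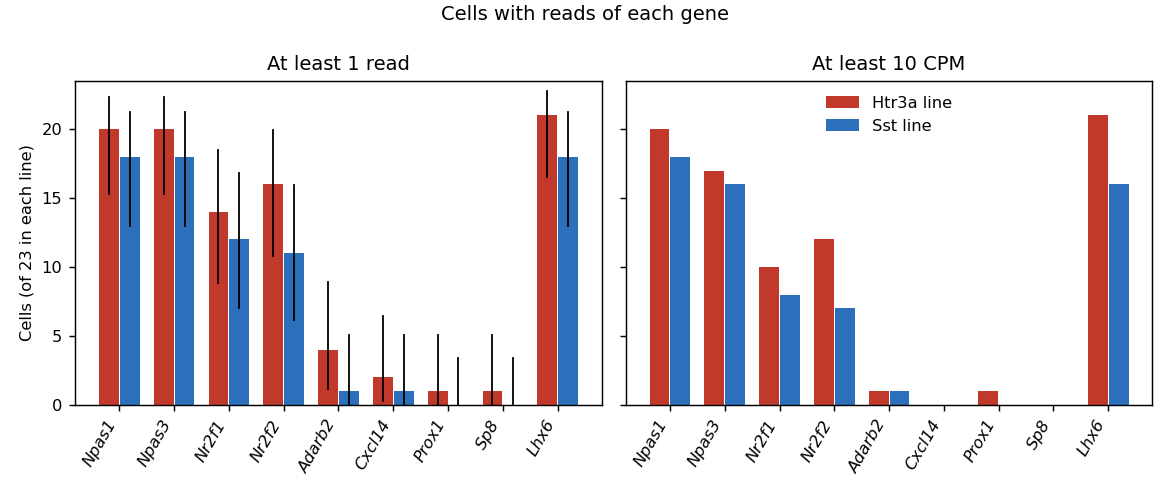
Cells of 23 in each line with at least 1 read (left) or at least 10 CPM (right) of each gene, Htr3a line in red and Sst line in blue; black lines are exact 95% intervals of the share. Npas1, Npas3, Nr2f1, Nr2f2 and Lhx6 were read in 11 to 21 cells of each line, and the other genes in at most 4.

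Npas1 had the highest summed level per exon length of the 8 genes in both lines. In Htr3a-line cells it ranged from 0 to 1109 CPM with a median of 323, and in Sst-line cells from 0 to 735 CPM with a median of 352. Cells with a Npas1 read were 86.96% of the Htr3a line (20 of 23, exact 95% interval 66.4 to 97.2) and 78.3% of the Sst line (18 of 23, interval 56.3 to 92.5). The lines overlap over most of their ranges, and in both a cell held either no Npas1 read or more than 10 CPM. The mean log2(CPM + 1) was 6.76 ± 3.12 in the Htr3a line and 6.69 ± 3.66 in the Sst line (SD, 23 cells each), a difference of 0.07 whose sign changed with single cells left out. Reads summed over the line gave 291 CPM (exact Poisson 95% interval 289 to 293) in the Htr3a line and 337 CPM (335 to 339) in the Sst line. Intervals cover counting error alone.

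Npas3 was read in as many cells of each line as Npas1, and its summed level was lower in the Htr3a line. It ranged from 0 to 168 CPM in Htr3a-line cells with a median of 31.5, and from 0 to 520 CPM in Sst-line cells with a median of 61.6. It had reads in 20 cells of the Htr3a line and 18 of the Sst line, and reached 10 CPM in 17 and 16. Summed over cells it stood at 54.6 CPM (53.9 to 55.4) in the Htr3a line and 110 CPM (109 to 111) in the Sst line, a log2 ratio of -0.99, or -1.15 to -0.73 when any 1 cell was dropped. The difference in mean log2(CPM + 1), Htr3a line minus Sst line, was -0.34, far inside the SDs of 2.50 and 3.10.

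Npas1 and Npas3 were read in the same cells. Of 46 cells, 37 held reads of both and 7 held reads of neither, while 1 held Npas1 without Npas3 and 1 Npas3 without Npas1. In the Htr3a line the same 20 cells held both. The 2 exceptions were Sst line replicate 23, with 215 CPM of Npas1 and no Npas3, and Sst line replicate 8, with no Npas1 and 3.10 CPM of Npas3. With 10 CPM as the minimum, 33 cells held both, 5 held Npas1 alone and 0 held Npas3 alone. After each cell was thinned to 3000000 reads, which kept 46 of 46 cells, 36 held both and 7 neither.

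**Figure D2:**
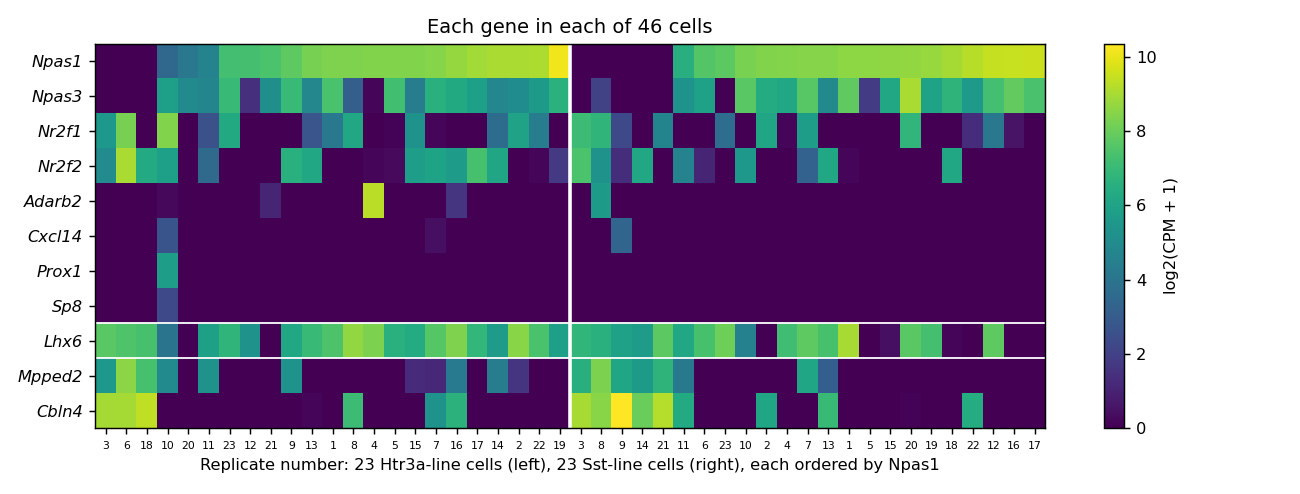
Level of each gene, as log2(CPM + 1) by colour, in each of 46 cells, Htr3a line left and Sst line right, each ordered by Npas1. The 3 Htr3a-line and 5 Sst-line cells at the left of each block hold no Npas1 read; 7 of these 8 hold no Npas3 read, and all 8 hold reads of Lhx6, Mpped2 and Cbln4.

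The cells without Npas1 held reads of the COUP-TF genes, as did most cells with Npas1. The 8 cells without Npas1 were Htr3a line replicates 3, 6 and 18 and Sst line replicates 3, 8, 9, 14 and 21. The sum of Nr2f1 and Nr2f2 in them was 75.7, 818.5 and 80.04 CPM in the 3 Htr3a-line cells and 307, 146, 5.42, 70.6 and 24.3 CPM in the 5 Sst-line cells. Nr2f1 was read in 6 of the 8 and Nr2f2 in 7. Among the 38 cells with Npas1, 31 held a read of at least 1 of the 2 genes and 7 held none. Thus 0 of 46 cells lacked Npas1, Nr2f1 and Nr2f2 together. Over all 46 cells, 39 held Nr2f1 or Nr2f2 and 38 held Npas1, so few cells could lack all of them. A sum above 20 CPM, a limit outside the stated minimums, was found in 7 of the 8 cells without Npas1 and in 19 of the 38 with it. Above 100 CPM the counts were 3 of the 8 and 3 of the 38. The share of all genes with such a contrast was not counted. With 10 CPM as the minimum, 7 of the 8 cells without Npas1 held Nr2f1 or Nr2f2, and 23 of 38 with it did. The cell below that minimum was Sst line replicate 9.

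Gad1 and Sst were read in all 8 of these cells. The 8 cells without Npas1 had 5639490 to 22689768 reads, 3350 to 8725 genes, 522 to 3646 CPM of Gad1 and 1888 to 20020 CPM of Sst. The 38 cells with Npas1 had 3391829 to 31386369 reads and 3225 to 12693 genes. Microglial genes summed to 96.9 to 5337 CPM in the 8 cells without Npas1, inside the 0 to 8443 CPM of the Htr3a line and the 0.0536 to 10880 CPM of the Sst line. Dentate granule and Cajal-Retzius marker lists, 3 and 4 genes, had a median of 0 CPM in both lines. Both lists were at 0 CPM in the same 8 cells. Vascular genes, of which Kdr and Tek were at 0 in all 46 cells, summed to 0 to 42.9 CPM in them. In the 8 cells, oligodendrocyte genes summed to 0.585 to 3744 CPM and astrocyte genes to 0.0598 to 349 CPM. Pyramidal genes summed to 0.159 to 99.1 CPM, and oligodendrocyte precursor genes to 0 to 60.4 CPM. Genes of CGE interneuron types summed to 0 to 1710 CPM. The upper value, in Sst line replicate 21, was the highest of the 46 cells. The part of the transcripts of microglia and of other cell types in this pattern was not tested.

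**Figure D3:**
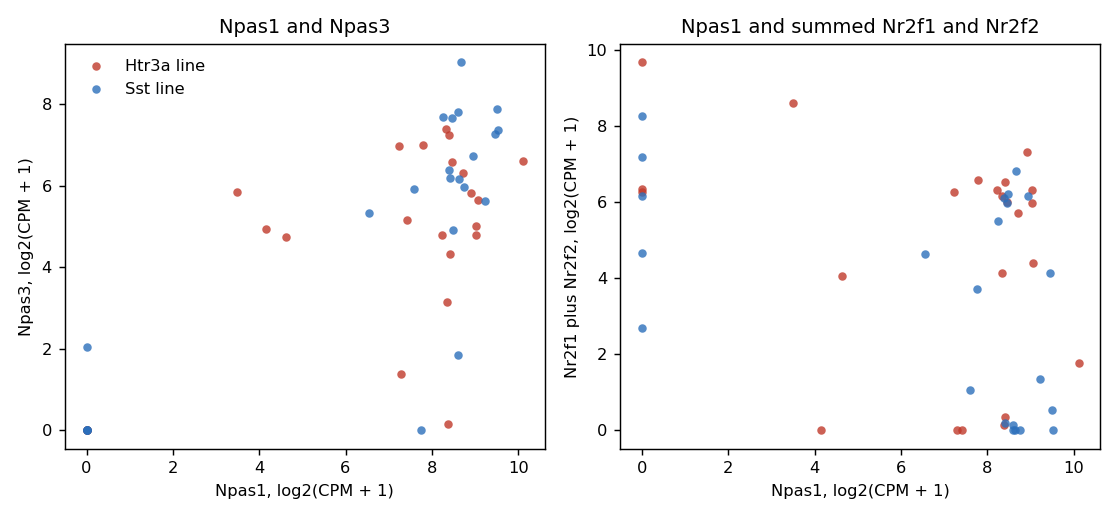
Npas1 against Npas3 (left) and against the sum of Nr2f1 and Nr2f2 (right), each as log2(CPM + 1), 1 point per cell, Htr3a line in red and Sst line in blue. On the left, 7 cells lie on top of each other at 0 for both genes. On the right, the 8 cells at 0 for Npas1 all lie above 0 for Nr2f1 plus Nr2f2, as do 31 of the 38 with Npas1.

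Over the 46 cells, Spearman's rank correlation of log2(CPM + 1) was 0.60 between Npas1 and Npas3 (0.41 in the Htr3a line, 0.67 in the Sst line). Of 10003 genes compared, each read in at least 12 cells, Npas1 was the gene most like Npas3, and Npas3 ranked 4 among the genes like Npas1. The rank correlation was -0.28 between Npas1 and Nr2f2 (-0.08 in the Htr3a line, -0.49 in the Sst line) and -0.22 between Npas1 and Nr2f1. The values for Nr2f2 and Nr2f1 over all cells are weak. Counted from the lowest of the 10003 genes compared with Npas1, Nr2f2 ranked 327 and Nr2f1 771. All these values are given as a description. Cells of a line share a driver and differ in the number of genes read, whose rank correlation with Npas1 was 0.31 in the Htr3a line and -0.37 in the Sst line.

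Nr2f2 was the gene that differed most between the lines in the number of cells. In Htr3a-line cells it ranged from 0 to 522 CPM with a median of 10.98, and in Sst-line cells from 0 to 172 CPM with a median of 0. Cells with a Nr2f2 read were 69.6% of the Htr3a line (16 of 23, exact 95% interval 47.1 to 86.8) and 47.8% of the Sst line (11 of 23, interval 26.8 to 69.4), and the intervals overlap. At 10 CPM the counts were 12 and 7, after thinning 15 and 10, and with at least 5 reads 13 and 10, so the gap of 5 cells became 3 under the last. The mean log2(CPM + 1) was 3.30 ± 3.17 in the Htr3a line and 2.05 ± 2.75 in the Sst line (SD, 23 cells each), a difference of 1.24 that is smaller than either SD and lay between 0.98 and 1.49 with each cell left out.

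Single cells carried much of the Nr2f2 signal. Summed over cells it stood at 65.4 CPM in the Htr3a line, of which Htr3a line replicate 6 gave 38.6% of the reads, and at 17.3 CPM in the Sst line, of which Sst line replicate 3 gave 47.97%. Without these cells the values were 42.15 and 9.45 CPM. Both are among the 8 cells without Npas1. Nr2f2 is also known from blood vessel cells. The 9 vascular genes summed to 0 to 84.2 CPM in Htr3a-line cells and 0 to 42.9 CPM in Sst-line cells. Their median was 0 in both lines, and their sum was 0.0601 CPM in Htr3a line replicate 6. That cell held 1117 of the 1121 Htr3a-line reads of Slc17a7, a gene of pyramidal cells chosen after its values were seen, at 67.1 CPM. The part of pyramidal transcripts in its Nr2f2 reads was not tested.

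The difference of Nr2f2 is to be read against the whole table. Of 12217 genes read in at least 5 cells, 4.9% had both a difference in mean log2(CPM + 1) and a log2 ratio of summed CPM of at least 1, higher in the Htr3a line, and 1.96% passed in the other direction. Of the 8 genes, 5 were read in at least 5 cells, and 1 of these, Nr2f2, passed in the first direction and 0 in the other. Nr2f2 no longer passed without Htr3a line replicate 6, where its difference was 0.98, or with a pseudocount of 10, where it was 0.68. Reads in at least 5 more Htr3a-line than Sst-line cells were found for 16.1% of the genes and for 1 of these 5, again Nr2f2, which did not reach that gap when a cell needed at least 5 reads. Reads in at least 5 fewer cells were found for 0.9% of the genes and 0 of these 5. The median difference over the 12217 genes was 0.20. Over the 5 genes under the same filter it was 0.29, with 4 higher and 1 lower in the Htr3a line. Over all 8 genes, including those read in fewer than 5 cells, it was 0.17.

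Nr2f1 was read in about as many cells of each line. It ranged from 0 to 333 CPM in Htr3a-line cells with a median of 4.85, and from 0 to 135 CPM in Sst-line cells with a median of 0.145. It was read in 14 and 12 cells and reached 10 CPM in 10 and 8. Summed over cells it stood at 46.6 CPM in the Htr3a line, or 30.3 without replicate 10, and at 25.3 CPM in the Sst line, or 19.7 without replicate 3. The difference in mean log2(CPM + 1) was 0.61, between 0.36 and 0.84 with each cell left out, against SDs of 2.997 and 2.757.

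**Figure D4:**
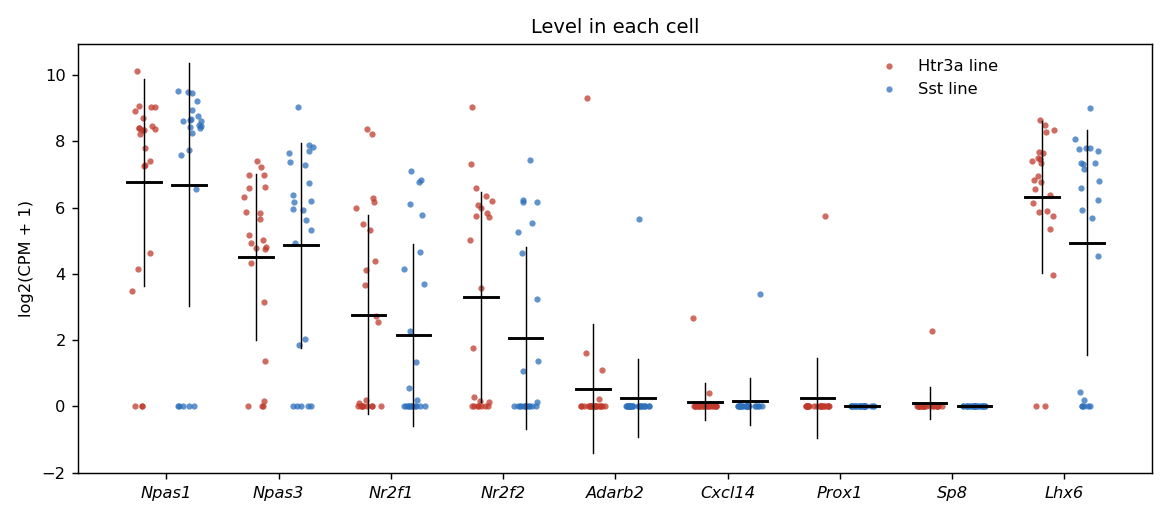
Level of each gene as log2(CPM + 1), 1 point per cell, Htr3a line in red and Sst line in blue; horizontal bars are means and vertical lines 1 SD to each side over 23 cells. Cells with no read lie at 0, and the 2 lines overlap in every gene shown that was read in both.

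Nr2f1 and Nr2f2 did not mark the same cells. Both were read in 14 cells, Nr2f1 alone in 12, Nr2f2 alone in 13 and neither in 7. In the Htr3a line 10 cells held both, 4 Nr2f1 alone, 6 Nr2f2 alone and 3 neither, and in the Sst line the counts were 4, 8, 7 and 4. Spearman's rank correlation between them was -0.05 over 46 cells. At 10 CPM both were held by 7 cells, of which 5 were of the Htr3a line and 2 of the Sst line.

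Lhx6 was read in 39 of all 46 cells, and so in most cells that held the widely read CGE genes. It was read in 31 of 38 cells with Npas1 and in 31 of 38 with Npas3. In Htr3a-line cells Lhx6 ranged from 0 to 403 CPM with a median of 114, and in Sst-line cells from 0 to 512 CPM with a median of 94.4. All 27 cells with an Nr2f2 read also held Lhx6, 16 of the Htr3a line and 11 of the Sst line. Of the 19 cells without Nr2f2, 12 held Lhx6 and 7 did not. With at least 5 reads as the minimum, 22 of 23 Nr2f2 cells held Lhx6, and with 10 CPM 18 of 19. The exception under both was Sst line replicate 18, with 70.9 CPM of Nr2f2 and 0.141 CPM of Lhx6, a single read.

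Of the 26 cells with Nr2f1, 23 also held Lhx6, 14 of 14 in the Htr3a line and 9 of 12 in the Sst line. The 7 cells without an Lhx6 read were Htr3a line replicates 20 and 21 and Sst line replicates 2, 5, 16, 17 and 22. All 7 held Npas1, at 16.8 to 735 CPM, and Npas3, at 2.60 to 235 CPM. They had 3391829 to 19827427 reads and 3225 to 7629 genes. The lowest Npas1 level and the fewest reads were those of Htr3a line replicate 20, a cell set apart above for its low Gad1. Without that cell Npas1 stood at 170 to 735 CPM and the reads at 7168358 to 19827427. Of 46 cells, 31 held Lhx6 and Npas1, 8 Lhx6 alone, 7 Npas1 alone and 0 neither. With 5 reads or 10 CPM as the minimum, 0 held neither. Lhx6 was read in 39 cells and Npas1 in 38, so few cells could lack both.

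Prox1 and Sp8, factors used to name CGE cells, were each read in 1 cell. That cell was Htr3a line replicate 10, with 53.1 CPM of Prox1 and 3.87 CPM of Sp8, and Sst-line cells held 0 reads, which allows a share of up to 13.04% of cells with a read when 3 cells are taken as the limit, and 14.82% by the exact 95% interval. The same cell held 333 CPM of Nr2f1, 56.3 CPM of Nr2f2, 5.38 CPM of Cxcl14, 10.3 CPM of Npas1 and 14.7 CPM of Lhx6. It also held the 39 reads of Vip, a peptide of CGE cells that was chosen after its values were seen. The same cell held all reads of other genes too, also chosen after their values were seen, among them 21 reads of Nkx2-1, a factor of the MGE, and 35, 15 and 109 reads of the vascular genes Cldn5, Flt1 and Vwf. It held 1720 reads of Neurod6, a gene of pyramidal cells, and its vascular and oligodendrocyte precursor genes summed to 14.1 and 84.9 CPM. Its dentate granule genes summed to 1.83 CPM, with Dsp and Tdo2 at 0, its pyramidal genes to 117 CPM and its Cajal-Retzius genes to 2.37 CPM. Their part in the reads of Prox1 and Sp8 was not tested.

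Adarb2 was read in 4 Htr3a-line cells and 1 Sst-line cell, at levels that 1 cell per line set. Htr3a line replicate 4 held 627 CPM, and the other 3 Htr3a-line cells held 2.06, 1.12 and 0.161 CPM. Sst line replicate 8 held 48.9 CPM. Summed over cells Adarb2 stood at 16.5 CPM in the Htr3a line, or 0.146 without replicate 4, and at 2.27 CPM in the Sst line, or 0 without replicate 8. Replicate 4 held 313 CPM of Lhx6 and 332 CPM of Npas1, but also the highest sums of oligodendrocyte and astrocyte genes, 13310 and 1383 CPM. Oligodendrocyte genes had medians of 114 CPM over Htr3a-line cells and 196 CPM over Sst-line cells, and astrocyte genes 62.6 and 55.8 CPM. The part of glial transcripts in its Adarb2 reads was not tested.

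Cxcl14 was read in 2 Htr3a-line cells, at 5.38 and 0.328 CPM, and in 1 Sst-line cell, at 9.39 CPM. It reached 10 CPM in 0 cells. The 3 cells also held Lhx6, which was read in 39 of all 46 cells.

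To set different genes side by side, levels were divided by the length of all annotated exons of a gene. The transcript forms present and the coverage along them were not checked, so the order of genes is approximate. As summed CPM per kilobase, Npas1 stood at 96.7 in the Htr3a line and 112 in the Sst line, and Lhx6 at 28.8 and 29.6. Nr2f1 stood at 9.16 in the Htr3a line and 4.96 in the Sst line, Npas3 at 9.10 and 18.2, and Nr2f2 at 7.58 and 2.003. Adarb2 stood at 1.26 and 0.173, Prox1 at 0.342 and 0, Cxcl14 at 0.167 and 0.316, and Sp8 at 0.0459 and 0. Npas1 led and Lhx6 came next in both lines. In the Htr3a line Nr2f1, Npas3 and Nr2f2 were close together, and Nr2f1 stood at 5.94 without replicate 10 and Nr2f2 at 4.89 without replicate 6, so their order rests on single cells.

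The genes whose levels over the 46 cells were most like each of the 4 widely read genes were named by rank of Spearman's rank correlation among 10003 genes. For Npas1 they were Lypd6 (0.65), a membrane protein that binds nicotinic receptors, Ap2m1 (0.63) and Get4 (0.62). For Npas3 they were Npas1 (0.60), Vps33a (0.59) and Crtc1 (0.54). For Nr2f1 they were Polg (0.59), Txndc17 (0.58) and Pfdn6 (0.58), and for Nr2f2 Tsg101 (0.59), Mpped2 (0.59) and Clvs1 (0.58). For Lhx6 they were Gba2 (0.56), Nrxn3 (0.56) and Ric3 (0.52). These genes were picked by rank from a long list, and both genes of a pair come from the same libraries.

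At the other end of these rankings stood 2 genes that were chosen after their values were seen. Mpped2 had the lowest rank correlation of the 10003 genes with Npas1 (-0.56) and Cbln4, a secreted organizer of synapses, the lowest with Npas3 (-0.53). Cbln4 was read in the 8 cells without Npas1 at 254.5 to 1308 CPM, and in the 38 cells with Npas1 it was read in 9, at no more than 136 CPM. Mpped2 was read in the same 8 cells at 45.5 to 377.5 CPM, and in the cells with Npas1 it was read in 11, at no more than 68.4 CPM. For Cbln4 the levels of the 8 cells and of the 38 cells do not overlap, and for Mpped2 1 cell with Npas1 reached the lowest of the 8. Both genes were picked for this contrast from the lowest ranks, so some separation was fixed in advance. The share of all genes that separate the 8 cells from the 38 was not counted. The separation is a description.

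**Figure D5:**
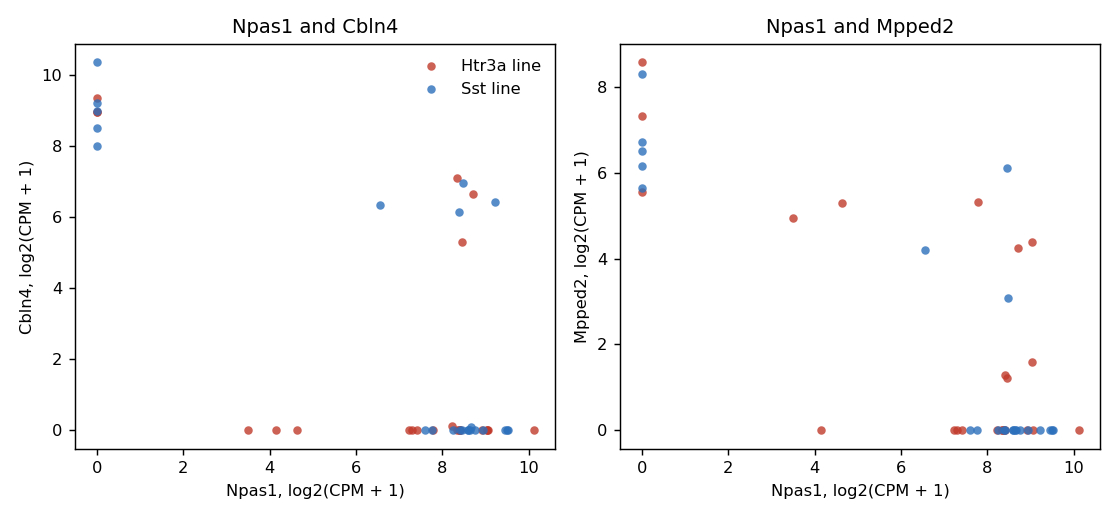
Npas1 against Cbln4 (left) and Mpped2 (right), each as log2(CPM + 1), 1 point per cell, Htr3a line in red and Sst line in blue. The 8 cells at 0 for Npas1, 3 of the Htr3a line and 5 of the Sst line, hold the 8 highest levels of Cbln4. Both genes were picked for this contrast.

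OLM genes were read unevenly across the same cells. Of the 8 cells without Npas1, 8 held Sst and 8 Crhbp, a peptide binding protein, while 0 held Chrna2, a nicotinic acetylcholine receptor subunit known from OLM cells, against 16 of the 38 cells with Npas1. Elfn1, a synaptic adhesion protein of OLM cells, was at 0 to 10.8 CPM in the 8 cells and 0 to 145 CPM in the 38. Pnoc, a peptide precursor, was read in 1 of the 8 and 26 of the 38. Npy, another peptide, was at 1195 to 11800 CPM in the 8 cells and 0 to 3778 CPM in the 38, of which 6 reached 1195. The share of all genes that differ as much between the 8 and the 38 cells was not counted, so these contrasts are a description. The label OLM covers all these cells, and whether the 8 are of the same cell class as the other 38 was not tested.

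The lists of MGE genes and of CGE interneuron types held members that were read in more cells of the Htr3a line, and 0 genes that passed the size rule. Of 7 MGE genes, 5 were read in at least 5 cells, 4 higher and 1 lower in the Htr3a line, with a median difference of 0.64, and 0 passed the size rule in either direction. Reads of Satb1 were found in 23 and 23 cells of the Htr3a and Sst lines, of Maf in 23 and 22, and of Lhx6 in 21 and 18. Sox6, an MGE factor chosen after its values were seen, was found in 19 and 12, a gap of 7 cells that is larger than that of Nr2f2. The difference of Lhx6 was 1.38 by mean log2(CPM + 1), with SDs of 2.28 and 3.40, but -0.04 as a log2 ratio of summed CPM. Of 10 genes of CGE interneuron types, 8 were read in at least 5 cells, 6 higher and 2 lower. Their median difference was 0.16, and 0 passed in either direction. Of all 12217 genes read in at least 5 cells, 7678 were higher and 4539 lower in the Htr3a line, with a median difference of 0.20. The counts of the 2 lists are to be read against these. Cnr1, the cannabinoid receptor, was read in 22 and 21 cells, Ndnf in 18 and 11, also a gap of 7, and Id2 in 13 and 12. A gap of at least 5 cells in this direction was found for 16.1% of the 12217 genes. The share with a gap of 7 was not counted. Lamp5, a marker of neurogliaform cells chosen after its values were seen, was read in 0 Htr3a-line cells and 1 Sst-line cell.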

How the data were processed

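Single-cell libraries of 46 patched neurons were analysed by driver line, 23 cells each, and replicate numbers follow sample order. The authors deposited raw read counts per gene, by symbol (22800 genes) and by Ensembl identifier (22880). Per the submitters' processing notes, Trimmomatic, STAR and featureCounts were used with GRCm38. Tool versions, gene models and strandedness are not given in the sources. The deposited normalized table is a signal, the count divided by 1 factor per cell (0.144 to 2.09) for 100% of non-zero values within 0.1%. The labels mention no molecular identifiers, so amplified copies may be counted, and intervals cover counting error only.

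Counts were scaled to CPM over 1000000 assigned reads, and log2(CPM + 1) was averaged over cells. Differences are Htr3a line minus Sst line. Summed CPM pools the reads of a line, and its log2 ratio adds 1 to each side. A cell held a gene with at least 1 read, and 5 reads, 10 CPM and thinning to 3000000 reads were alternatives. Shares carry exact Clopper-Pearson 95% intervals, summed CPM exact Poisson 95% intervals, and a share of 0 allows up to 3 cells. Genes in at least 5 cells formed the all-gene comparison (size rule: 1 on both log2 measures) and genes in at least 12 cells the rank of Spearman's rank correlation. Named genes are the 8 and Lhx6, the 3 most alike genes of each, leaving out predicted genes and pseudogenes, and up to 3 members of each list read in most cells. GENCODE M21 matched 22647 identifiers and 21969 symbols, and 9 of 9 genes had the same counts in both tables. Scaling alternatives used edgeR 4.0.16 (TMMwsp) and DESeq2 1.42.0 (poscounts). Calculations ran in Python 3.11.15 and were tested on simulated data. The members and lists were chosen with earlier results of these data known.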

Additional observations from a re-analysis of the deposited data

How the results depend on the processing

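The SD between cells is larger than the level differences, so staying within 1 SD says nothing of their stability, and their values are given here. With 10 CPM as the minimum, Nr2f2 was held by 7 Sst-line cells in place of 11, 1 cell held neither Npas1 nor Nr2f1 nor Nr2f2 in place of 0, and 1 cell held Nr2f2 without Lhx6 in place of 0, as it was also 1 with at least 5 reads. The cause was not tested. The counts on Npas1, and the values without Htr3a line replicates 4, 10 and 20 together, were chosen after seeing the data. With each cell left out, the difference in members read per cell ranged from 0.53 to 0.848, that of Nr2f2 from 0.98 to 1.49 and the median of the 8 from 0.05 to 0.29, while without the 3 cells together that median was 0. The Nr2f2 difference was 0.68 with a pseudocount of 10 and 1.20 to 1.27 under other scalings and thinning, and the all-gene median was 0.05 and 0.17 to 0.23.

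Small differences of single genes changed sign in 24 of 432 alternatives. Npas1 was at -0.14 with a pseudocount of 10 and -0.21 by summed CPM, and lay between -0.23 and 0.38 when any 1 cell was dropped. Adarb2 ranged from -0.11 to 0.53 and was -0.11 without the 3 cells, Cxcl14 from -0.13 to 0.13 and was 0.013 after thinning, and Lhx6 was -0.042 by summed CPM. No paired analysis was possible because each line is 1 sample and the numbers of the cells pair no animals. A read minimum cannot tell a missed transcript from an absent one in a single cell.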

Other observations

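Egln3 and Calb2, genes of CGE interneuron types chosen after their values were seen, had few cells with high levels. Egln3, an oxygen-sensing hydroxylase, was read in 8 Htr3a-line cells, 4 of them at 10 CPM or more, and in 7 Sst-line cells, 0 of them at 10 CPM. Summed over cells it stood at 15.6 CPM in the Htr3a line, or 6.13 without replicate 17, and at 0.149 CPM in the Sst line. Calb2, the calcium-binding protein calretinin, had reads in 7 cells of the Htr3a line and 3 of the Sst line, but summed to 18.8 CPM in the Htr3a line, or 5.58 without replicate 17, and to 74.9 CPM in the Sst line, or 23.04 without replicate 21.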
